A study of Mus musculus and Rattus norvegicus with 35 samples.

Results

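Kinesins are motor proteins that use ATP to move along microtubules or to take their ends apart. The kinesin genes were taken as all symbols that start with Kif and a digit, or with Kifc, which gave 42 of 24601 genes in the mouse table and 36 of 22409 in the rat table. Circular RNAs (circRNAs), which form when a downstream splice site joins an upstream one, were added where the deposited host symbol was one of these genes. That gave 121 of 28482 mouse circRNAs from 25 hosts and 51 of 18075 rat circRNAs from 19 hosts.

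In neurons the kinesin-1 heavy chains (Kif5a, Kif5b, Kif5c), the kinesin-2 chains (Kif3a, Kif3b, Kif3c, Kif17) and the kinesin-3 motors (Kif1a, Kif1b) carry mitochondria, vesicles, receptors and RNA granules into axons and dendrites. Another part of the family builds and clears the spindle: Kif11 pushes spindle poles apart, Kif23 works in cytokinesis, and Kif2c and Kif18a act on the microtubules that hold chromosomes. A smaller set (Kif7, Kif24, Kif27, Kif6, Kif9, Kif19a) is known from cilia, centrioles or sperm tails. By these roles the mouse genes were sorted into 17 transport, 13 mitotic, 6 cilium and centriole and 6 other genes, and the rat genes into 13, 12, 6 and 5. Kif4 and Kif4-ps, and Kifc1 and Kifc5b, are near-identical copies, so how reads were split within each of these pairs is uncertain.

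RNA of 34 libraries is analysed here, of which 28 were made from mice (strain C57BL/6) and 6 from rats (Sprague Dawley). Mouse hippocampus was taken at embryonic day 18 (E18) and postnatal days 1, 10 and 30 (P1, P10, P30), with 2 libraries at each age. Adult mouse brain, testis, heart, liver and lung were each represented by 3 libraries depleted of ribosomal RNA, of which 2 came from animals of 20 weeks and 1 from an animal of 14 weeks. A further brain library at 14 weeks was made from oligo-dT selected, poly(A) RNA. Single libraries came from a synaptosome fraction and its homogenate of 4-week mouse hippocampus. Neuropil and somata layers were cut from 500 µm slices of hippocampal area CA1 of 4-week animals, 1 pair of single libraries in mouse and 1 in rat. Rat hippocampal neurons at 28 days in vitro received 40 µM bicuculline, a GABA-A receptor blocker, over 12 h, and control cultures were given water (2 libraries per group). The labels name no transgene or mutant allele. The labels do not say that replicate libraries came from separate animals or cultures, so p-values measure the spread between these libraries. Gene levels are TPM, a unit scaled for transcript length and sequencing depth. In tests a gene was called at an adjusted p below 0.05 (limma on log2(TPM + 1), two-sided, adjusted over all genes tested), and log2 differences are on that scale. Kinesin genes at 1 TPM or more numbered 29 to 39 in the mouse hippocampal libraries and 17 to 39 in the adult tissues. The deposited values per library are TPM, so total gene read counts are not known here. Recovered circRNA reads per library ran between 1231 and 43523 in the rRNA-depleted mouse libraries.

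Sequences around the transcription start are shown first for mitotic genes that moved together with age and in testis, with 1 transport gene set against them. Each line holds 60 bases before to 30 bases after the start, 5′ to 3′ on the gene's strand, from RefSeq on GRCm38.p6. The motif TTTGAA, whose letters are those of the CHR element known from late cell-cycle promoters, or its reverse complement TTCAAA, is in capitals. The mitotic genes printed are among those that held it within this stretch, so these lines do not show how common it is. Kif5c did not hold it there. Kif2c and Kif14, which are not printed, held it only further upstream, at bases -103 and -228. Kif18a, also not printed, did not hold it between 250 bases before and 50 after the start.

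Kif11 (chr19:37376322-37376411, plus strand): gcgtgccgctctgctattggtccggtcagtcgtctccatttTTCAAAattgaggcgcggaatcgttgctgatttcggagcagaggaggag
Kif15 (chr9:122951021-122951110, plus strand): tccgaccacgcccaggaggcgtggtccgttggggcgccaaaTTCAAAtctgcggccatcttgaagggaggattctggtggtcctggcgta
Kif18b (chr11:102925095-102925184, minus strand): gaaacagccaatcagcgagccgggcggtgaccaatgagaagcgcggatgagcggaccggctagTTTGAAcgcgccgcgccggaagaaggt
Kif20b (chr19:34922298-34922387, plus strand): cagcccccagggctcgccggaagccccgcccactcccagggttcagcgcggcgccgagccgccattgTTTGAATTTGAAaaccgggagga
Kif22 (chr7:127042391-127042480, minus strand): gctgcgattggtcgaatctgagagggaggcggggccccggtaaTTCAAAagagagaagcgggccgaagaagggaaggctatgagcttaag
Kif23 (chr9:61946770-61946859, minus strand): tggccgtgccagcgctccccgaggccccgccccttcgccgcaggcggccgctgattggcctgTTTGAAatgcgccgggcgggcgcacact
Kif5c (chr2:49619226-49619315, plus strand): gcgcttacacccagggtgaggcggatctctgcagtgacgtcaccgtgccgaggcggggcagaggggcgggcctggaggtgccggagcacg

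Of the mitotic genes, 12 had a RefSeq promoter window of 250 bases before to 50 after the start, and 11 of these windows (91.7%) held TTTGAA on either strand. The 11 transport genes with an entry had 13 windows, since Kif1a and Kif1b had more than 1 start each, and the motif was in 1 of the 13 (7.69%). That window was of Kif1a, with the motif at base -44, and the other Kif1a window did not hold it. Among all 32851 promoter windows the motif was in 5878 (17.9%). Restricted to 50 bases before to 30 after the start, it was in 9 of 12 mitotic windows (75.0%) and 1 of 13 transport windows (7.69%), against 4.29% of all windows. CCAAT on either strand was in 8 of 12 mitotic windows (66.7%), 4 of 13 transport windows (30.8%) and 37.4% of all windows. The Kif18a window held neither motif. Kifc1 and Kifc5b, near-identical copies, were both counted in the mitotic shares. The bases just before TTCAAA were the same in both, so these are not separate cases. The motifs were counted separately, and a match describes letters, not a bound site.

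With age in the hippocampus, the mitotic kinesin mRNAs fell and most called transport kinesin mRNAs rose. Between P30 and E18, 39 of the 42 genes were tested (Kif12, Kif2b and Kif4-ps were too low), of which 10 were higher and 16 lower at P30, where over all genes 29.5% were higher and 26.8% lower. All 13 mitotic genes were lower, with a median log2 difference of -2.48 and a range of -3.26 to -1.02, beside a median of 0.01 over all genes tested. Of 17 transport genes 9 were higher and 1 lower, with a median of 0.45. Summed over the transport genes, levels were 3163 and 3002 TPM at P30, against 1357 and 1843 TPM at E18, while the mitotic genes summed to 14.4 and 13.8 TPM at P30, against 142 and 149.7 TPM at E18.

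**Figure D1:**
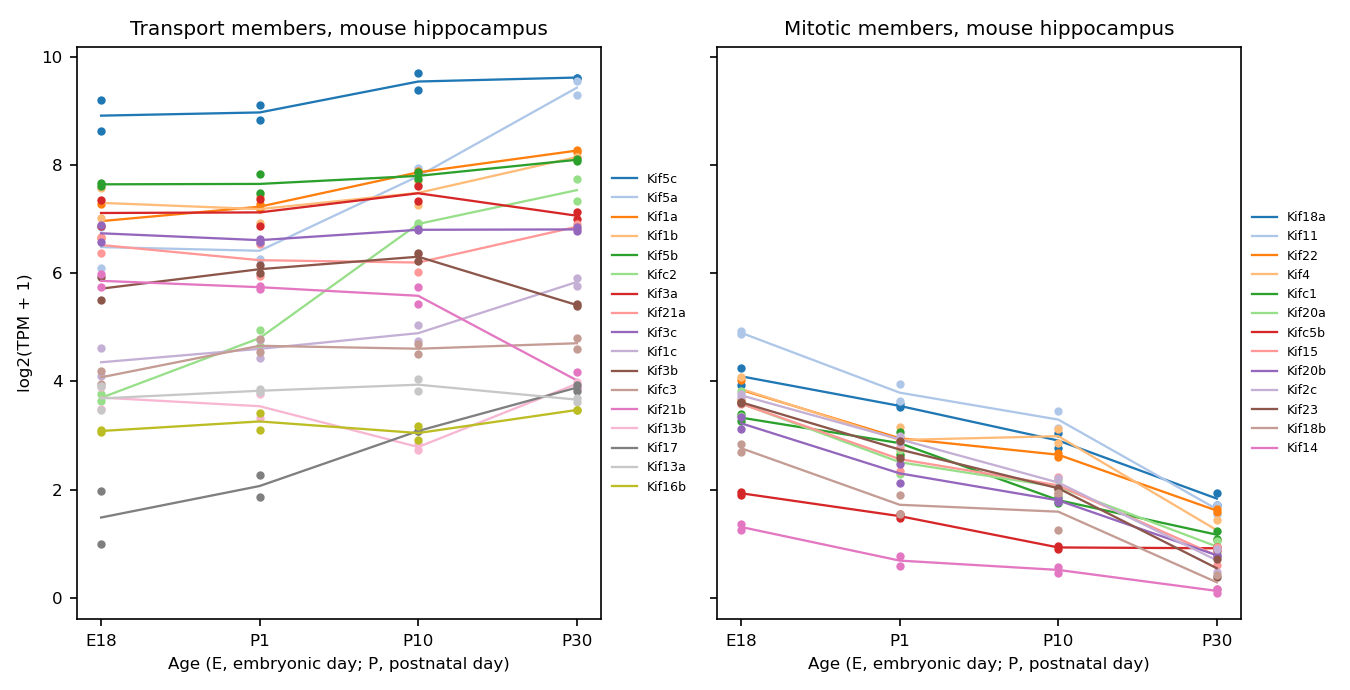
Level on the log2(TPM + 1) scale of transport (left) and mitotic (right) kinesin genes in mouse hippocampus at E18, P1, P10 and P30, with 1 point for each library (2 per age) and lines through the means. Kif11, Kif23, Kif2c and Kif15 step down at each later age, while the lines of Kifc2 and Kif5a climb most steeply to P30.

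Kif11, the plus-end motor of the spindle poles, had 29.5 and 28.2 TPM at E18, 11.4 and 14.5 at P1, 9.99 and 7.77 at P10, and 2.29 and 1.94 at P30. Its log2 difference of P30 over E18 was -3.26 (SE 0.195, adjusted p = 1.26e-06, limma). No library of a later age reached the E18 values. Kif23, a centralspindlin subunit needed for cytokinesis, had 11.2 and 11.3 TPM at E18, 4.96 and 6.50 at P1, 3.11 and 3.03 at P10, and 0.297 and 0.640 at P30 (log2 difference -3.07, SE 0.203, adjusted p = 2.36e-06). Kif2c, which depolymerises microtubules at kinetochores, had 12.2 and 12.6 TPM at E18, 6.31 and 6.96 at P1, 3.12 and 3.65 at P10, and 0.395 and 0.868 at P30 (log2 difference -3.05, SE 0.202, adjusted p = 2.37e-06). Kif15, which backs up Kif11 on the spindle, had 10.9 and 11.1 TPM at E18, 4.07 and 5.89 at P1, 3.71 and 2.79 at P10, and 0.922 and 0.528 at P30 (log2 difference -2.81, SE 0.225, adjusted p = 7.08e-06). In each of these genes the P1 and P10 libraries lay between the E18 and P30 libraries. The other 9 mitotic genes differed by log2 -2.65 (Kif20a) to -1.02 (Kifc5b), all with adjusted p of 0.00102 or less.

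Among transport genes the largest rise was in Kifc2, a minus-end motor of the kinesin-14 class known from neurons. It had 12.5 and 11.4 TPM at E18, 29.8 and 24.3 at P1, 121 and 118 at P10, and 213 and 161 at P30, a log2 difference of 3.84 (SE 0.172, adjusted p = 2.92e-07). The ages did not overlap. Kif5a, the kinesin-1 heavy chain made mainly in neurons, had 67.9 and 116 TPM at E18, 76.0 and 94.0 at P1, 199 and 247 at P10, and 754 and 633 at P30 (log2 difference 2.95, SE 0.241, adjusted p = 7.88e-06). Kif17, a kinesin-2 motor that carries NMDA receptor subunits, had 14.4 and 13.2 TPM at P30, against 0.978 and 2.95 TPM at E18 (log2 difference 2.40, SE 0.301, adjusted p = 0.000121). Kif1c, a kinesin-3 motor, had 59.4 and 53.4 TPM at P30, against 23.5 and 16.1 TPM at E18 (log2 difference 1.49, SE 0.210, adjusted p = 0.000258). Kif1a, the kinesin-3 motor of synaptic vesicle precursors, had 99.3 and 155 TPM at E18, 145 and 155 at P1, 229 and 237 at P10, and 304 and 312 at P30, a log2 difference of 1.30 (SE 0.189, adjusted p = 0.000308). For Kif5a, Kif17, Kif1c and Kif1a the P30 libraries lay above both E18 libraries, and in each of the 4 genes the E18 and P1 libraries overlapped.

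The 3 kinesin-1 chains had unlike courses. Kif5c had 395 and 591 TPM at E18, 457 and 554 at P1, 671 and 835 at P10, and 788 and 787 at P30 (log2 difference 0.71, adjusted p = 0.0147, limma). Kif5b, the chain found in most tissues, had 271 and 277 TPM at P30, against 196 and 203 TPM at E18 (log2 difference 0.45, adjusted p = 0.0242). Kif5c was at the highest mean level of the 3 at E18, Kif5a lay under Kif5b there, and at P30 both Kif5a and Kif5c lay above Kif5b. Kif1b (log2 difference 0.85, adjusted p = 0.0123) and Kifc3 (0.63, adjusted p = 0.0118) also passed. Kif1b and Kif5c lost their calls without E18 replicate 1 (adjusted p = 0.102 and 0.119, limma), without P30 replicate 1 (0.0532 and 0.0576) or without P30 replicate 2 (0.0512 and 0.0577). Kifc3 lost its call without E18 replicate 1 (adjusted p = 0.0771) or P30 replicate 1 (0.0835). Kif5b lost its call when any 1 library of E18 or P30 was left out and when libraries were scaled to equal medians (adjusted p = 0.0609), and the count of 10 higher genes was 6 without E18 replicate 1 or P30 replicate 1. The 1 transport gene that fell was Kif21b, a kinesin-4 motor of dendrites, with 17.0 and 13.6 TPM at P30, against 52.6 and 62.2 TPM at E18 (log2 difference -1.84, SE 0.174, adjusted p = 2e-05).

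Kif3a, Kif3b and Kif3c, kinesin-2 chains that work in cilia and in neurites, did not pass. Kif3a had 117 and 163 TPM at E18, 117 and 165 at P1, 161 and 196 at P10, and 127 and 139 at P30 (log2 difference -0.05, SE 0.211, adjusted p = 0.858). Its P30 libraries lay within the E18 range. The log2 difference was -0.30 for Kif3b (adjusted p = 0.15) and 0.07 for Kif3c (adjusted p = 0.691). Kif13a, Kif13b, Kif16b and Kif21a also did not pass, with log2 differences between -0.02 and 0.39. Kif16b, an endosome motor whose circRNAs are described further on, had 7.42 and 7.54 TPM at E18, 7.55 and 9.74 at P1, 6.55 and 8.03 at P10, and 10.1 and 10.1 at P30 (log2 difference 0.39, adjusted p = 0.105).

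Of the 6 cilium and centriole genes 1 was higher and 1 lower at P30. Kif19a, which trims microtubules in motile cilia, had 6.84 ± 0.594 TPM at P30, against 2.27 ± 0.662 TPM at E18 (SD, n = 2 each; log2 difference 1.27, adjusted p = 0.00569). Kif7, the kinesin of the Hedgehog pathway, had 1.43 and 1.01 TPM at P30, against 3.49 and 3.55 TPM at E18 (log2 difference -1.03, adjusted p = 0.00161). The groups did not overlap for either gene. Among the other genes Kif26a had 4.16 and 2.75 TPM at P30, against 16.5 and 15.9 TPM at E18 (log2 difference -1.97, adjusted p = 0.000321).

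Cargo adaptors and the opposing motor were listed as fixed sets beside the kinesins. Of 25 kinesin light chains, adaptors and partners 14 were higher and 1 lower at P30 (median log2 difference 0.81), among them Hap1 (2.09), Klc2 (1.72), Clstn1 (1.70) and Klc1 (0.81). The 1 lower was Fez1, a kinesin-1 adaptor, at -0.40 (adjusted p = 0.0263). Of 24 dynein and dynactin genes 7 were higher and 3 lower (median 0.18), with Dynlt3 at 1.90, Actr1b at 1.43 and Dctn1 at 0.97 on one side, and Dync1i2 at -1.08 and Actr1a at -0.83 on the other. Cell type markers moved over the same ages. All 10 proliferation markers were lower, their sum being 21.0 to 22.0 TPM at P30, against 403 to 414 TPM at E18. All 8 neuron markers other than Kif1a were higher, with sums of 4580 to 4761 TPM at P30, against 415 to 489 TPM at E18. All 7 astrocyte markers (1957 to 2030 TPM at P30, against 369 to 443 TPM at E18), all 7 oligodendrocyte markers (9072 to 10247 TPM at P30, against 39.8 to 40.1 TPM at E18, where Opalin was listed at 0) and all 6 microglia markers (181 to 199.96 TPM at P30, against 33.4 to 44.5 TPM at E18) were higher too. In these bulk samples fewer cells of a type and less RNA per cell cannot be told apart, and the part of these markers in the kinesin results was not tested.

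In adult tissues most transport kinesins were higher in brain, and Kif5a, Kif5c and Kif1a had the largest differences of the family there. Brain minus the mean of heart, liver and lung had 18 of 41 tested genes higher and 6 lower, where over all genes 46.2% were higher and 20.4% lower. The median over all genes was 0.40 and over kinesins 0.42. Of the transport genes 12 were higher and 3 lower (median 1.84), and of the mitotic genes 1 was higher and 3 lower (median -0.13). Of the cilium and centriole genes 3 were higher, and of the other genes 2 were higher. The 3 cilium and centriole genes, Kif27, Kif9 and Kif19a, were not above lung. Kif27 had 2.55 to 3.60 TPM in brain and 11.3 to 12.3 TPM in lung, and Kif9 4.75 to 5.42 and 12.4 to 12.8 TPM. For Kif19a, brain (2.56 to 5.23 TPM) overlapped lung (3.92 to 9.85 TPM). When libraries were scaled to equal medians, 13 kinesins were higher and 19 lower, with a median over all genes of -0.46, and Kif27, Kif9 and Kifc5b changed sign, so the direction of these 3 depends on the scaling. Among 20-week libraries alone the counts were 22 higher and 7 lower.

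**Figure D2:**
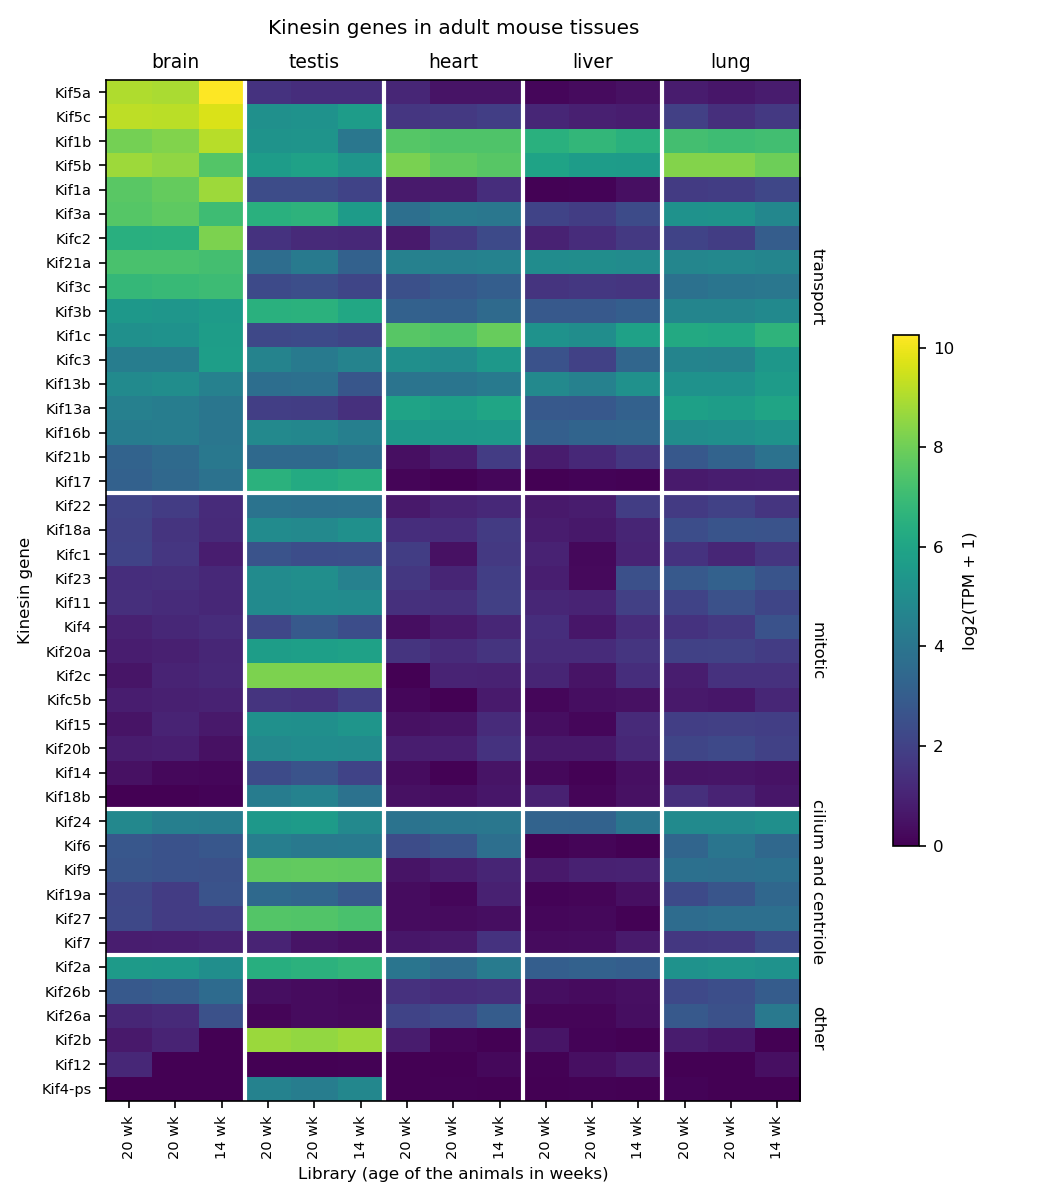
Level on the log2(TPM + 1) scale (colour) of each mouse kinesin gene (rows, by role) in the 15 rRNA-depleted adult tissue libraries (columns, with age in weeks). Kif5a, Kif5c and Kif1a stand out in brain, and Kif2b, Kif2c, Kif9 and Kif27 in testis.

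Kif5a had 513 and 488 TPM in the 20-week brains and 1214 TPM in the 14-week brain, against 0.121 to 1.13 TPM in the 9 heart, liver and lung libraries, where the median was 0.471 (log2 difference 8.81, SE 0.239, adjusted p = 6.39e-13, limma). The lowest brain library lay far above the highest of the 9, and the 14-week brain lay above both 20-week brains. Kif5c had 597, 578 and 803 TPM in brain, against 0.775 to 2.82 TPM with a median of 2.10 in the 9 others (log2 difference 7.90, SE 0.167, adjusted p = 6.92e-14). Kif1a had 195, 223 and 426 TPM in brain, against 0.0543 to 3.48 TPM with a median of 0.687 in the 9 others (log2 difference 7.03, SE 0.229, adjusted p = 3.91e-12). The groups did not overlap for any of the 3 genes. Kif3c, a kinesin-2 chain known mainly from neurons, had 113, 119 and 129 TPM in brain, against 1.92 to 15.9 TPM with a median of 6.17 in the 9 others (log2 difference 4.14, SE 0.141, adjusted p = 6.37e-12).

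Kif3a, which other tissues use for cilia, was present outside the brain too. It had 185, 205 and 133 TPM in brain, against 2.66 to 37.5 TPM with a median of 15.7 in the 9 others (log2 difference 3.71, SE 0.216, adjusted p = 2.27e-09). Kifc2 (log2 difference 5.33, adjusted p = 2.98e-08), Kif17 (3.18), Kif21a (2.54), Kif3b (1.84), Kif21b (1.78) and Kif1b (1.45) were also higher. For Kif21b, brain (8.60 to 16.3 TPM) overlapped lung (6.04 to 13.7 TPM). Kif5b had 424, 369 and 179 TPM in brain, against 48.9 to 321 TPM with a median of 212 in the 9 others (log2 difference 0.99, SE 0.225, adjusted p = 0.00146). These groups overlapped, and Kif5b lost its call under equal medians.

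The 3 transport genes that were lower in brain were Kif1c, Kif13a and Kif16b. Kif1c had 34.0, 36.6 and 51.8 TPM in brain, against 31.1 to 235 TPM with a median of 74.6 in the 9 others (log2 difference -1.08, SE 0.191, adjusted p = 0.000186). Kif13a, a motor of recycling endosomes, had 21.1, 19.5 and 15.3 TPM in brain, against 6.03 to 63.3 TPM with a median of 52.9 (log2 difference -0.61, adjusted p = 0.0022). Kif16b had 18.7, 19.6 and 15.1 TPM in brain, against 7.51 to 45.3 TPM with a median of 33.0 (log2 difference -0.40, adjusted p = 0.0127), a call lost without the 14-week brain. The brain values of all 3 lay inside the range of the other tissues. Among mitotic genes Kif20a (log2 difference -0.64, adjusted p = 0.00101), Kif20b (-0.64, adjusted p = 0.00618) and Kif18b (-0.64, adjusted p = 0.00864) were lower. Kif11 had 1.61, 1.37 and 1.19 TPM in brain, against 1.03 to 4.90 TPM in the 9 others (log2 difference -0.47, adjusted p = 0.054), and Kif23 had 1.51, 1.61 and 1.29 TPM, against 0.195 to 8.01 TPM (log2 difference -0.58, adjusted p = 0.166). Kif26b (log2 difference 1.71) and Kif2a (1.29) were higher among the other genes. Brain and lung overlapped for both, with Kif2a at 32.1 to 47.4 TPM in brain and 36.5 to 39.5 TPM in lung. The sum of the 8 neuron markers was 3517 to 3897 TPM in brain, against 4.86 to 46.0 TPM in the 9 others, and its part in these differences was not tested. Of the partners and adaptors 22 of 25 were higher and 0 lower (median 3.00; 22 had an unadjusted p below 0.05), and of the dynein and dynactin genes 21 of 24 were higher and 1 lower (median 1.42).

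Testis showed another set. Testis minus heart, liver and lung, which shares those 9 libraries with the brain comparison, had 28 of 41 tested kinesins higher and 9 lower, where over all genes 36.4% were higher and 41.2% lower. The median was 1.98 over kinesins and -0.15 over all genes. All 13 mitotic genes were higher (median 3.21), 5 of 6 cilium and centriole genes were higher, and the transport genes were divided, 7 higher and 7 lower (median 0.04). Testis libraries summed to 497, 501 and 394 TPM over transport genes and to 546, 559.9 and 556 TPM over mitotic genes.

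Kif2c had 298, 299 and 301 TPM in testis, against 0 to 1.75 TPM with a median of 1.02 in the 9 others (log2 difference 7.27, SE 0.245, adjusted p = 2.24e-12). Kif2b, a related depolymerase, had 414, 384 and 434 TPM in testis, against 0 to 0.732 TPM with a median of 0.0927 (log2 difference 8.35, SE 0.244, adjusted p = 4.35e-13). In mouse hippocampus of any age Kif2b did not exceed 0.125 TPM. Kif20a had 51.4, 54.1 and 57.9 TPM in testis, against 1.37 to 3.02 TPM (log2 difference 4.21, adjusted p = 1.7e-12). Kif20b had 27.1, 30.8 and 29.4 TPM, against 0.592 to 3.84 TPM (log2 difference 3.57, adjusted p = 2.05e-10). Kif18b had 18.7, 22.0 and 13.6 TPM, against 0.0923 to 1.57 TPM (log2 difference 3.57, adjusted p = 3.87e-10). Testis libraries lay above all 9 others for each of these genes. Kif11 had 29.0, 30.2 and 29.8 TPM in testis, against 1.03 to 4.90 TPM (log2 difference 3.21, adjusted p = 2.77e-09), and Kif23 had 30.1, 32.2 and 21.9 TPM, against 0.195 to 8.01 TPM (log2 difference 2.96, adjusted p = 2.92e-06).

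Of the cilium and sperm-tail genes, Kif27 had 180.4, 173 and 156 TPM in testis, against 0.0495 to 12.3 TPM with a median of 0.277 (log2 difference 6.02, SE 0.130, adjusted p = 1.74e-14). Kif9, known from the sperm flagellum, had 215, 219 and 215 TPM, against 0.438 to 12.8 TPM with a median of 0.977 (log2 difference 5.95, SE 0.137, adjusted p = 3.29e-14). Both genes were far above their brain levels of 2.55 to 3.60 TPM and 4.75 to 5.42 TPM. Kif6 (log2 difference 2.05), Kif19a (2.06) and Kif24 (1.16) were also higher, and Kif7 had a log2 difference of -0.43 (adjusted p = 0.0693). Testis and lung overlapped for Kif19a (6.29 to 10.3 and 3.92 to 9.85 TPM) and for Kif24 (27.5 to 47.8 and 29.0 to 33.0 TPM). Kif4-ps had 22.4, 19.4 and 25.9 TPM in testis and was listed at 0 in all 3 rRNA-depleted brain libraries, with the limit that its reads may be shared with Kif4.

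Transport genes in testis had no common direction. Kif17 had 91.8, 76.4 and 84.3 TPM in testis, against 0 to 0.815 TPM with a median of 0.102 in the 9 others (log2 difference 6.09, SE 0.150, adjusted p = 6.9e-14), above its brain levels of 7.96, 9.94 and 13.7 TPM. Kif5c had 34.7, 36.1 and 49.8 TPM in testis, against 0.775 to 2.82 TPM (log2 difference 3.89, adjusted p = 3.52e-11). Kif3b had 89.9, 92.7 and 70.7 TPM in testis, against 6.19 to 27.7 TPM (log2 difference 2.76, adjusted p = 1.25e-10). These 3 genes did not overlap between groups. Kif3a had 90.8, 98.4 and 48.7 TPM in testis, against 2.66 to 37.5 TPM (log2 difference 2.54, adjusted p = 7.83e-08). The neuron-rich pair differed little in absolute level: Kif1a had 4.24, 4.23 and 3.17 TPM (log2 difference 1.25, adjusted p = 0.000179) and Kif5a 1.82, 1.56 and 1.51 TPM (log2 difference 0.81, adjusted p = 0.00713) in testis.

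On the lower side, Kif1c had 3.70, 3.98 and 3.38 TPM in testis, against 31.1 to 235 TPM with a median of 74.6 (log2 difference -4.21, SE 0.191, adjusted p = 6.45e-11). Kif13a had 2.73, 2.58 and 1.71 TPM, against 6.03 to 63.3 TPM (log2 difference -3.17, adjusted p = 8.48e-11). Kif1b had 37.8, 38.5 and 15.5 TPM, against 89.5 to 186 TPM (log2 difference -2.19, adjusted p = 1.98e-06). Testis lay below all 9 other libraries for these genes. Kif5b had 49.4, 56.7 and 40.0 TPM, against 48.9 to 321 TPM (log2 difference -1.64, adjusted p = 1.2e-05), and these groups overlapped. Kif13b (-1.34), Kif21a (-1.03) and Kif3c (-0.48) were lower as well, as were Kif26a (-1.72) and Kif26b (-1.14). For Kif3c, testis (3.46 to 4.53 TPM) lay above liver (1.92 to 2.13 TPM), and for Kif26a and Kif26b testis and liver overlapped. The 8 germ cell markers summed to 29724 to 48974 TPM in testis, against 6.31 to 56.3 TPM in the 9 others, and the 10 proliferation markers to 655 to 767 TPM, against 20.1 to 96.3 TPM. Their part in these values was not tested. Heart, liver and lung each had their own markers highest, with heart markers at 35463 to 47229 TPM in heart, liver markers at 56460 to 94316 TPM in liver and lung markers at 71934 to 83312 TPM in lung.

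Between synaptosomes, a fraction of pinched-off nerve endings, and the homogenate they came from, the kinesin-1 chains Kif5a, Kif5b and Kif5c and the kinesin-3 motors Kif1a, Kif1b and Kif1c were higher in synaptosomes. With 1 library each there is no replicate check and no test. A gene was counted when log2(TPM + 1) differed by more than 1 and either library had at least 1 TPM. Over all genes 5.83% were higher and 14.0% lower in the synaptosome library, and the median was -0.29. Of 31 kinesins at 1 TPM or more 7 were higher and 2 lower (median 0.30), and of 17 transport genes 6 were higher and 1 lower (median 0.74).

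Kif1a had 3071 TPM in synaptosomes and 278 TPM in the homogenate (log2 difference 3.46). Kif5c had 4638 TPM in synaptosomes and 532 TPM in the homogenate (3.12), Kif1b 2534 and 315 TPM (3.00), and Kif5a 3215 and 594 TPM (2.44), in the same order. Kif5b had 801 TPM in synaptosomes and 223 TPM in the homogenate (1.84), and Kif1c 95.8 and 37.2 TPM (1.34). The kinesin-3 motors Kif13a (0.82), Kif13b (0.54) and Kif16b (0.30) were not past 1. The kinesin-2 chains had negative differences, of which only that of Kif3a was past 1. Kif3a had 48.7 TPM in synaptosomes and 127 TPM in the homogenate (-1.37), Kif17 4.96 and 9.21 TPM (-0.78), Kif3b 33.0 and 42.4 TPM (-0.35), and Kif3c 95.3 and 110.1 TPM (-0.21). Kif21a (-0.83) and Kif2a (-0.69) were lower but not counted. Kif4, with 4.04 TPM in synaptosomes and 0.845 TPM in the homogenate, and Kif19a, with 1.47 and 4.08 TPM, were the low-level members past the limit.

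**Figure D3:**
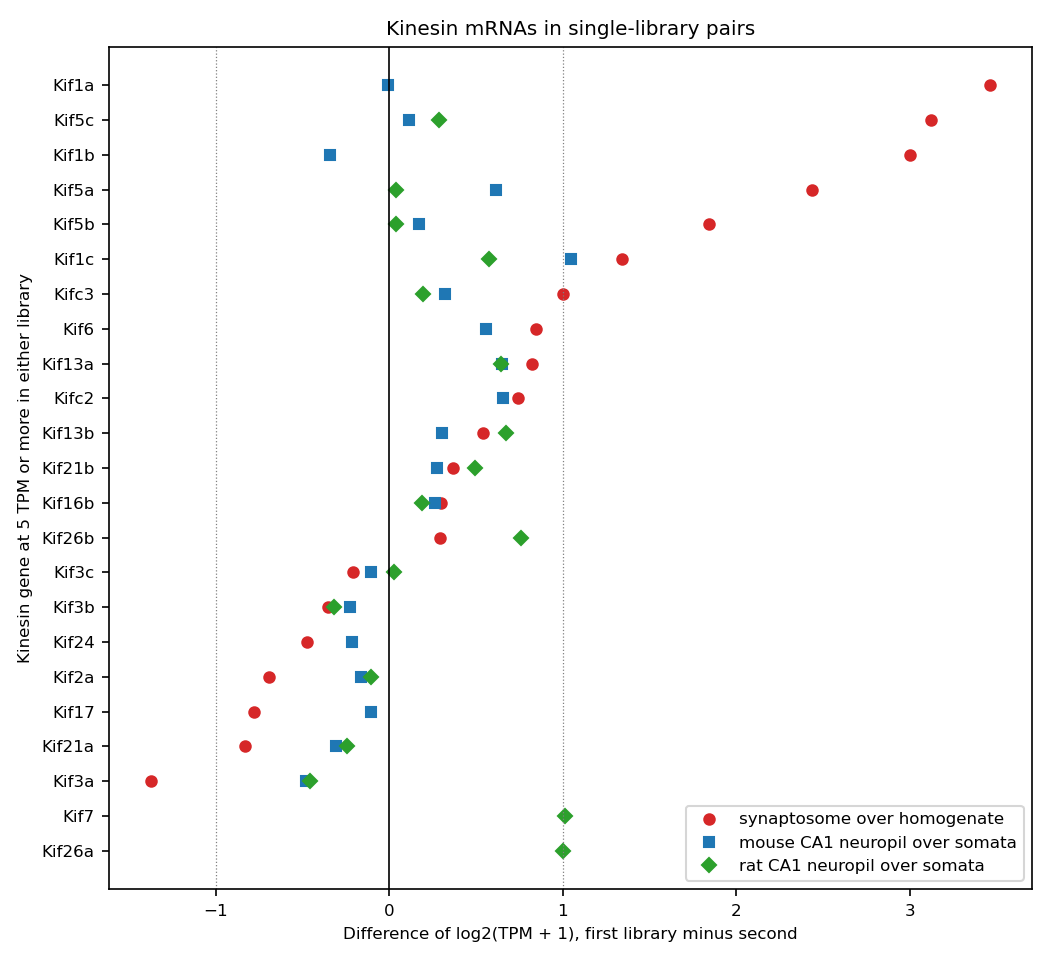
Difference of log2(TPM + 1) between the 2 single libraries of each pair (synaptosome minus homogenate, and neuropil minus somata in mouse and rat CA1) for kinesin genes at 5 TPM or more in either library. Kif1a, Kif5c and Kif1b reach 3.00 to 3.46 between synaptosome and homogenate, while CA1 differences lie between -0.48 (Kif3a, mouse) and 1.05 (Kif1c, mouse); dotted lines mark a difference of 1 either way.

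In all, the transport genes summed to 14987 TPM in synaptosomes and 2620 TPM in the homogenate. Partners and adaptors did not follow: 2 of 25 were higher and 5 lower (median -0.06), and of 24 dynein and dynactin genes 0 were higher and 6 lower (median -0.69). Markers of other cells moved in the same pair. Of astrocyte markers 6 of 7 were higher, with a sum of 9170 TPM in synaptosomes and 1631 TPM in the homogenate. Of microglia markers 5 of 6 were higher (545 and 169 TPM, in the same order), of oligodendrocyte markers 1 of 7 (10572 and 5811 TPM), and of 8 neuron markers 1 was higher and 2 lower (3694 and 4919 TPM). All 6 endothelial markers were lower (26.1 and 182 TPM). Their part in the kinesin values was not tested.

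CA1 neuropil holds dendrites, axons and glia, while the somata layer holds the pyramidal cell bodies. Kinesin mRNAs differed much less here. In mouse, over all genes 8.22% were higher and 0.97% lower in neuropil, and 1 of 33 kinesins was higher and 0 lower. It was Kif1c, with 88.0 TPM in neuropil and 42.0 TPM in somata (log2 difference 1.05). Kifc2 had 298 TPM in neuropil and 189 TPM in somata (0.65), Kif13a 11.7 and 7.05 TPM (0.65), and Kif5a 1079 and 703 TPM (0.62). Kif1a had 241 TPM in neuropil and 242 TPM in somata, and Kif5c 937 and 865 TPM. On the lower side were Kif3a with 115 TPM in neuropil and 161 TPM in somata (-0.48), Kif1b with 261 and 331 TPM (-0.34), Kif21a with 99.2 and 123 TPM (-0.31) and Kif3b with 35.0 and 41.0 TPM (-0.22).

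In rat CA1 over all genes 8.35% were higher and 1.47% lower in neuropil, and 2 of 32 kinesins were higher and 0 lower. They were Kif23, with 2.36 TPM in neuropil and 0.557 TPM in somata (1.11), and Kif7, with 5.45 and 2.19 TPM (1.02). Kif26a had 6.28 TPM in neuropil and 2.64 TPM in somata (1.00), Kif26b 10.5 and 5.78 TPM (0.76), Kif13b 21.3 and 13.0 TPM (0.67) and Kif1c 109 and 72.9 TPM (0.57). As in mouse, Kif3a was lower in neuropil, with 101 TPM in neuropil and 139 TPM in somata (-0.46), and so were Kif3b (38.9 and 48.9 TPM, -0.32) and Kif21a (-0.24). Kif2a had 56.3 TPM in neuropil and 60.7 TPM in somata (-0.11). Kif5a, at 0.62 in mouse, had 292 TPM in neuropil and 284 TPM in somata of rat (0.04). Of 28 kinesins that reached 1 TPM in both the mouse and the rat pair, 22 had the same sign. Glial and vessel markers were higher in neuropil, namely 6 of 7 astrocyte markers in mouse (3628 TPM in neuropil, 1462 TPM in somata) and 5 of 7 in rat, 5 of 6 microglia markers in mouse and 4 of 6 in rat, and all 6 endothelial markers in both. Their part in the kinesin differences was not tested.

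In rat hippocampal cultures bicuculline gave 1 called kinesin. Of 33 genes tested 1 was higher and 0 lower, with 4 at an unadjusted p below 0.05, where over all genes 2.06% were higher and 0.51% lower. The called gene was Kif18a, the motor that dampens chromosome movements at the metaphase plate. It had 13.5 and 15.6 TPM with bicuculline, against 3.24 and 4.31 TPM with water (log2 difference 1.71, SE 0.216, adjusted p = 0.0273, limma). The groups did not overlap. The adjusted p was 0.189 without bicuculline replicate 1, 0.154 without bicuculline replicate 2 and 0.0883 without the filter on low genes.

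**Figure D4:**
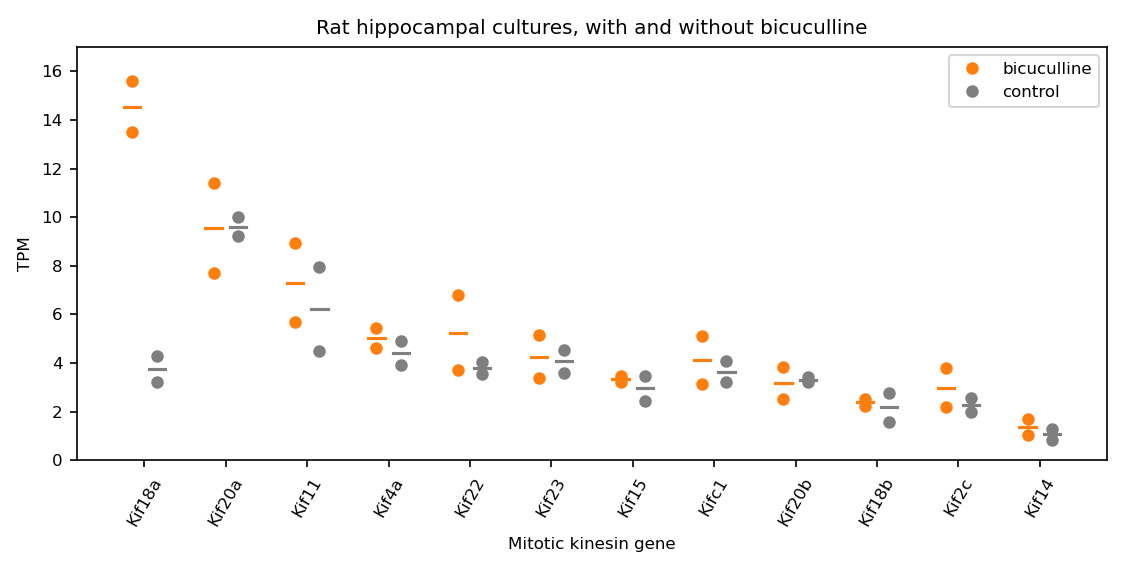
Level in TPM of the rat mitotic kinesin genes in bicuculline cultures and water controls, with 1 point for each of the 2 libraries per group and a short bar at the mean. Kif18a lies at 13.5 and 15.6 TPM with bicuculline and at 3.24 and 4.31 TPM in controls, while the groups of each other gene overlap.

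No other mitotic gene passed, their log2 differences lying between -0.06 and 0.34. Kif11 had 5.68 and 8.92 TPM with bicuculline, against 4.50 and 7.97 TPM in controls, and Kif23 had 3.40 and 5.14 TPM, against 3.60 and 4.54 TPM. The proliferation markers had 0 of 10 called, 1 of them at an unadjusted p below 0.05, with sums of 77.4 to 103 TPM with bicuculline, against 74.6 to 81.8 TPM in controls. The largest difference among them was that of Bub1 (log2 difference 1.34, not called). It had 11.5 and 10.2 TPM with bicuculline, against 3.07 and 4.36 TPM in controls, without overlap. The 8 neuron markers summed to 4044 to 4324 TPM with bicuculline and 3842 to 4697 TPM in controls, and the 7 astrocyte markers to 8530 to 9295 TPM and 8729 to 12125 TPM, so the cultures held both kinds of RNA. Transport genes did not pass either. Kif5a had 221 and 188 TPM with bicuculline, against 297 and 202 TPM in controls. Kif5b had 222 and 238 TPM, against 218 and 249 TPM, and Kif5c had 477 and 597 TPM, against 481 and 505 TPM. All 3 overlapped between groups. Kif3a had 94.4 and 89.3 TPM with bicuculline, against 142 and 120.2 TPM in controls (log2 difference -0.51, SE 0.137, adjusted p = 0.134), and Kif16b had 4.79 and 5.59 TPM, against 7.91 and 7.99 TPM (log2 difference -0.53, adjusted p = 0.227). Their groups did not overlap, and neither difference passed over all genes in this fit. Of 5 cilium and centriole genes tested 0 were called. Kif27 had the lowest log2 difference of all kinesins tested (-0.68), with 1.53 and 1.62 TPM with bicuculline, against 2.88 and 3.37 TPM in controls. Kif24 had the highest of these 5 (0.44), with 1.86 and 2.26 TPM, against 1.33 and 1.18 TPM. The groups of Kif27 and of Kif24 did not overlap. The 36 rat kinesin genes included no symbol Kif1a, Kif1b, Kif17 or Kifc2, so these could not be compared in the cultures or in rat CA1. Of 25 partners and adaptors 1 was higher, Ppfia2, a scaffold of the presynapse, at a mean of 202 TPM with bicuculline and 92.0 TPM in controls (log2 difference 1.13, adjusted p = 0.0273), and of 24 dynein and dynactin genes 0 were called, 5 having an unadjusted p below 0.05.

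Some kinesin levels differed between single 14-week brain libraries made from poly(A) RNA and from rRNA-depleted RNA, where the method and the library cannot be told apart. Over all genes 9.07% were higher and 15.9% lower in the poly(A) library, and 0 of 34 kinesins were higher and 7 lower. The lower ones were Kif24 with 5.52 TPM in the poly(A) library and 19.2 TPM in the rRNA-depleted one (log2 difference -1.63), Kif16b with 4.38 and 15.1 TPM (-1.59), Kif1b with 209 and 564 TPM (-1.43), Kif6 with 1.68 and 5.90 TPM (-1.36), Kif21a with 62.1 and 144 TPM (-1.20), Kif26b (-1.06) and Kif13b (-1.05). The highest differences were Kif2a, with 59.5 TPM in the poly(A) library and 32.1 TPM in the rRNA-depleted one (0.87), and Kif21b, with 29.3 and 16.3 TPM (0.81). No replicate check exists for this pair. All 7 lower genes were also hosts of circRNAs, as were 25 of the 42 genes in all. The 42 include genes under 1 TPM in both libraries, which could not be counted as lower. Whether hosts differed from other genes in this pair was not tested.

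Kinesin circRNAs were few and mostly thin. In RPM units 1 read was worth 0.448 to 2.14 RPM in the mouse libraries, and the values came out as whole reads. The 121 mouse circRNAs held 991 reads over all libraries, with a median of 4, and only 9 reached 20 reads. The 51 rat circRNAs held 106 reads, 34 of them with 1 read each. Transport genes hosted 72.7% of the mouse reads and 83.0% of the rat reads, mitotic genes 2.93% and 2.83%. No kinesin circRNA had a read in the poly(A) library, which held 127 circRNA reads in all.

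The host with the most circRNA reads, Kif16b, was at a low mRNA level. It was at 6.55 to 10.1 TPM in mouse hippocampus, where its circRNAs had 117 reads. Over all mouse libraries it gave 15 circRNAs with 344 reads (34.7% of the kinesin reads), and in rat 8 circRNAs with 36 of 106 reads (34.0%). Kif1b, at a mean of 193 TPM in hippocampus, had 60 circRNA reads there, and Kif5c, at 635 TPM, had 46. Over all mouse libraries Kif1b gave 20 circRNAs with 111 reads and Kif5c 15 with 76. None of the 121 mouse circRNAs had Kif1a or Kif5a as host, at mean hippocampal levels of 204 and 273 TPM. In rat, Kif5a had 5 circRNAs with 17 reads, 12 of them from chr7:70700722-70700997 of rn5. Kif2a (73 reads), Kif21a (66), Kif3b (59) and Kif26b (48) came next in mouse.

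The back-splice junctions of the most-read mouse circRNAs are shown because they are the parts no linear mRNA has. The last 8 bases of the last exon and the first 8 of the first exon are in capitals. Exons were matched by lengths and spacing to GENCODE transcripts on GRCm38, and 95 of the 121 matched consecutive exons.

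Kif16b, exons 16 and 17, whole circle (GRCm38 chr2:142739523-142740991, minus strand; the capitals at either end join): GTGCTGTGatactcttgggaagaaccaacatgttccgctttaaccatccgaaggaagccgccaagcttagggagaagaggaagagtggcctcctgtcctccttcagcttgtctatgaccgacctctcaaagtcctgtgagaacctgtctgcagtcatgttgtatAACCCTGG
Kif16b, exons 4 to 12 (GRCm38 chr2:142834077-142857427, minus strand): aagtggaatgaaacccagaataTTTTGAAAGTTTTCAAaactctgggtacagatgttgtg
Kif3b, exons 3 to 5 (GRCm38 chr2:153320275-153320902, plus strand): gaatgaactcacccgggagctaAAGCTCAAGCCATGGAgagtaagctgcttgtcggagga
Kif2a, exons 5 to 9 (GRCm38 chr13:106982524-106988075, minus strand): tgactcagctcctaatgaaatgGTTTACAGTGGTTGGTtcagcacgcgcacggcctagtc
Kif26b, exon 3 (GRCm38 chr1:178678826-178679359, plus strand): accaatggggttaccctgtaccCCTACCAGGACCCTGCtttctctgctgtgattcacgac

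The circle of exons 16 and 17 of Kif16b, at chr2:142565259-142566727 of mm9 and 172 bases long, was the most-read kinesin circRNA with 199 of the 991 reads. It had 19, 16 and 8 reads in brain, against 4, 7 and 1 in heart, 0, 1 and 0 in liver and 3, 1 and 1 in lung, and 3, 1 and 0 in testis. In RPM the brain libraries had 35.2, 30.7 and 9.41. Brain and heart overlapped, so the groups were not apart. The log2 difference of brain over heart, liver and lung was 2.86 (SE 0.604, adjusted p = 0.00142, limma on log2(RPM + 1.18)), which became 0.44 (adjusted p = 0.833) when libraries were scaled to equal circRNA totals, totals that were 25200 to 30723 RPM in brain, against 1287 to 4539 RPM in heart, liver and lung. In hippocampus it had 3.27 and 4.37 RPM at E18, 3.52 and 4.08 at P1, 2.30 and 2.44 at P10, and 5.22 and 6.72 at P30. These values rest on 4 to 11 reads per library, and no difference between P30 and E18 was called. All circRNAs summed to 17782 and 18414 RPM at P30, against 11493 and 10826 RPM at E18. The Kif16b gene itself had 15.1 to 19.6 TPM in those brain libraries.

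**Figure D5:**
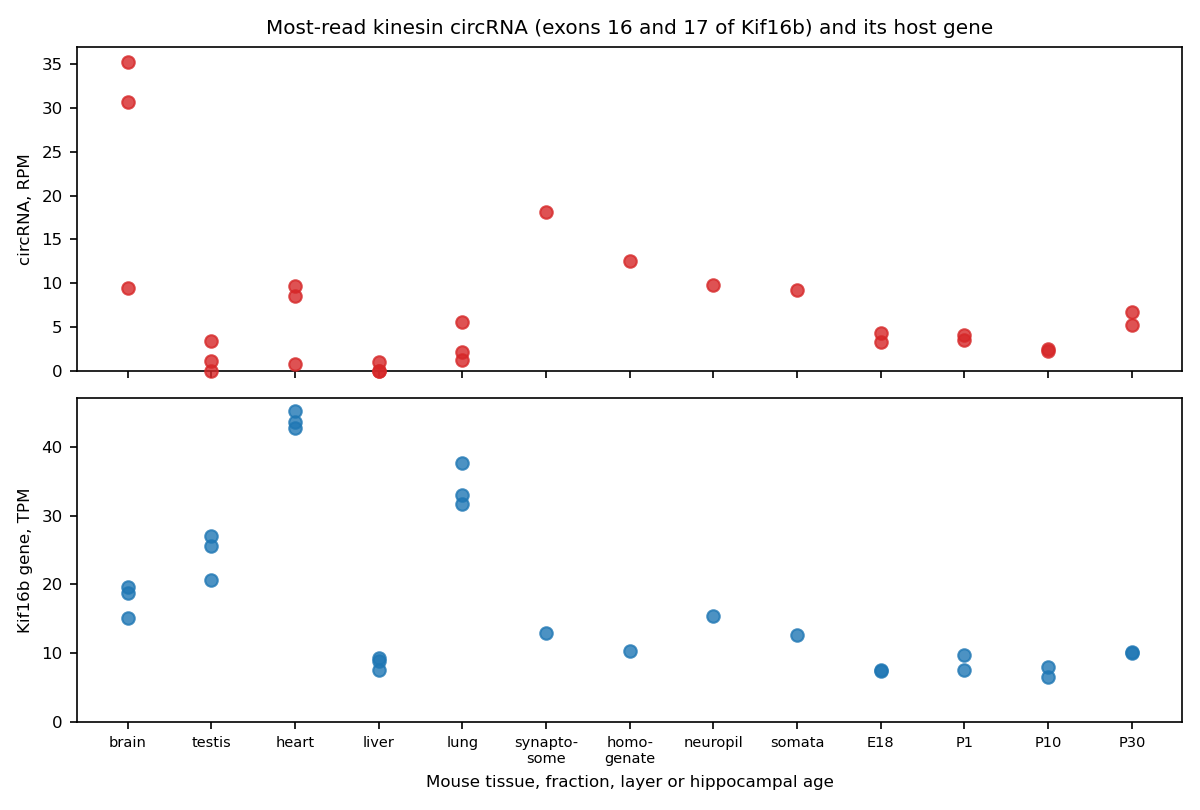
Upper panel, RPM of the circRNA from exons 16 and 17 of Kif16b; lower panel, TPM of the Kif16b gene, with 1 point for each mouse library by tissue, fraction, CA1 layer or hippocampal age. The circRNA reaches 35.2 and 30.7 RPM in the 20-week brains, where the gene is at 18.7 and 19.6 TPM.

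Across tissues 19 kinesin circRNAs were tested in brain against heart, liver and lung, of which 8 were higher and 0 lower, where over all circRNAs 48.7% were higher and 1.11% lower. By edgeR on the recovered reads 1 was called, and 1 likewise under equal totals. The Kif3b circRNA (chr2:153146011-153146638 of mm9, 57 reads in all) had 3 reads in each of the 3 brain libraries, against 0 or 1 in each of the 9 others (log2 difference 2.16, SE 0.306, adjusted p = 4.7e-05). Its groups did not overlap. The others called were hosted by Kif9, Kif6, Kif2a and Kif5c (1 each) and Kif16b (2 more), and none of them had more than 2 reads in a heart, liver or lung library. Testis was not in this comparison. Its kinesin circRNAs had 14, 16 and 78 reads (15.9, 18.4 and 56.0 RPM, the 14-week library last). Those of brain had 42, 39 and 40 reads (77.9, 74.7 and 47.0 RPM) in the same order. Between P30 and E18 58 were tested, 0 were higher and 3 lower, with 12 at an unadjusted p below 0.05, where over all circRNAs 6.27% were higher and 1.44% lower. The 3 were hosted by Kif6, Kif1b and Kif23, had 1 or 2 reads in each E18 library and 0 at P30, and 0 were called by edgeR. In cultures 7 were tested and 1, hosted by Kif5c, was called higher, beside 6.72% higher and 3.35% lower over all circRNAs. In simulated data this culture test called 577 unchanged circRNAs among 5319. On the recovered reads of the measured cultures edgeR called 0, so that call is not relied on.

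In the synaptosome library all kinesin circRNAs together had 109 reads (59.9 RPM), and in the homogenate 75 reads (33.6 RPM), a ratio of 1.78 with a 95% exact counting interval of 1.31 to 2.42. All circRNAs summed to 23898 RPM in synaptosomes and 16367 RPM in the homogenate, a ratio of 1.46, which lies within that interval. The interval covers counting error only and the pair has no replicates. The Kif16b circRNAs had 49 reads in synaptosomes and 39 in the homogenate (ratio 1.54, interval 0.99 to 2.41). In mouse CA1, neuropil had 37 kinesin circRNA reads and somata 30 (ratio 1.45, interval 0.869 to 2.42), and in rat CA1 neuropil had 29 and somata 24 (ratio 1.56, interval 0.877 to 2.80). These intervals include 1. All circRNAs together had a neuropil over somata ratio of 2.05 in mouse and 2.00 in rat, within both intervals.

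Some circles had the same exon make-up in both species. Of the 51 rat circRNAs 43 had a host with mouse circRNAs, and 9, from 5 hosts and with 37 of the 106 rat reads, had the same exon lengths in the same order as a mouse circRNA of that host. They were hosted by Kif16b, Kif26b, Kif21a, Kif1c and Kif27. The Kif16b circle of 9 exons and 1071 bases, at chr3:143319720-143341625 of rn5, was the most-read kinesin circRNA in rat, with 19 reads, and had 31 reads in mouse. The Kif16b circle of exons of 83 and 89 bases had 2 reads in rat and 199 in mouse, and the single-exon Kif26b circle of 534 bases 3 in rat and 35 in mouse. The order of the Kif16b circles by reads was thus not the same in the 2 species, in which other tissues and ages were sampled.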

How the data were processed

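Illumina RNA-seq libraries of mouse and rat tissue, hippocampal fractions and cultures were measured, and a long-read sample was not analysed here. Per the submitters' processing notes, CASAVA 1.8.2, TopHat2 2.0.6 and Cufflinks 2.2.1 were used with builds mm9 and rn5. No source used here names the tool that called circRNAs. Gene levels are the TPM values the authors deposited, and circRNA levels are the RPM values the authors deposited; the circRNA tables' score column, also deposited by the authors, was not used. RPM steps gave whole reads, within 0.1 of a read, for 100% of values in each mouse library and for 99.6% or more in each rat library.

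The kinesin members and lists were chosen with earlier results of these data known. The text gives per-library values for up to 4 called members per role and direction, and always for Kif1a, Kif5a, Kif5b, Kif5c, Kif3a, Kif11 and Kif23. Tests were limma 3.58.1 (R 4.3.3) with a trend on log2(TPM + 1), for genes reaching 1 TPM in as many libraries as the smaller group, and on log2(RPM + pseudocount), with pseudocounts of 0.578 (hippocampus), 1.18 (tissues) and 0.837 (cultures); edgeR 4.0.16 quasi-likelihood on the recovered reads was the alternative. In simulated data the circRNA test recovered 0 of 169 changed circRNAs between P30 and E18 and 47 of 182 in brain. Pairs of single libraries had no test.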

Additional observations from a re-analysis of the deposited data

How the results depend on the processing

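The alternatives left 1969 values of single members the same, 67 without the call, 6 newly called and 16 with the opposite sign. In tested comparisons the same meant the same direction and call. In each single-library pair, which has no call, 24 values were counted as the same because the difference moved little. Of counts, 207 stayed within 1.5 times and 45 did not. The cause was not tested. Under equal medians the brain comparison had 19 kinesins lower, with Kif27 at -0.29, Kif9 at -0.079 and Kifc5b at -0.44, and in cultures Kif5b was at 0.041. Leaving out 1 library, P30 over E18 had 6 to 10 kinesins higher and 15 to 16 lower, with Kif3a from -0.29 to 0.19 (0.19 without E18 replicate 2, 0.013 without P30 replicate 1). Brain had 17 to 20 higher and 5 to 8 lower, and testis 26 to 28 higher and 9 to 10 lower. In cultures 0 to 1 were higher, 0 without either bicuculline library; across these, Kif11 ran from -0.14 to 0.57, Kif23 from -0.20 to 0.28, Kif5a from -0.55 to 0.012, Kif5b from -0.11 to 0.080, Kif5c from -0.049 to 0.28, and the rat Kif16b circRNA of 9 exons from -1.73 to 0.20. Without a low filter 0 were higher. Of kinesin circRNAs, P30 over E18 had 3 higher in the fit of only those libraries and 0 to 2 on leaving out 1 library; 0 were lower without a low filter and by edgeR, 1 with at least 20 reads over the fit (a floor chosen after seeing the data), and 0 to 4 on leaving out 1 library. In brain 1 was higher under equal totals, by edgeR and with at least 20 reads, 5 to 9 on leaving out 1 library (5 without the 14-week brain or 20-week brain replicate 2), and the Kif16b circRNA of 9 exons was at -0.17 under equal totals. In cultures 0 were higher without a low filter, under equal totals, by edgeR, with at least 20 reads and without any 1 library. Synaptosomes had 11 kinesins higher under equal medians, and 4 lower with a pseudocount of 0.1 TPM, 1 under equal medians and 1 at a minimum of 5 TPM. Mouse neuropil had 3 higher and 1 lower with the pseudocount of 0.1 TPM and 0 higher under equal medians. Rat neuropil had 8 higher, 0 and 1 (pseudocount of 0.1 TPM, equal medians, minimum of 5 TPM). The poly(A) library had 1 higher and 12 lower with the pseudocount of 0.1 TPM, and 2 higher and 4 lower under equal medians. The labels do not say that replicate numbers mark a shared batch (correlations of deviations 0.05 to 0.38 in hippocampus, 0.02 to 0.11 in tissues and 0.56 in cultures, there over only 2 numbers). With the replicate block, P30 over E18 kept counts of 10 higher and 16 lower, brain had 19 and 6, testis 28 and 10, and cultures 1 and 1, the 1 lower being Kif3a (adjusted p = 0.00177), where calls over all genes went to 1493 higher and 1805 lower, against 275 and 68 without the block; circRNAs had 0 higher and 2 lower at P30, 8 higher in brain and 1 in cultures. CircRNA reads limit precision: 79 of 121 mouse and 48 of 51 rat kinesin circRNAs had 5 reads or fewer.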
